A study of Mus musculus with 9 samples.

Results

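The suppressor of cytokine signalling (SOCS) family was followed in mouse bone marrow-derived macrophages given IL-27 or IL-4 or left untreated. Its members were taken by name, Cish and Socs1 to Socs7, and all 8 were present among the 16200 genes of the deposited counts and among the 12587 genes kept by the filter on low counts. Wild-type marrow cells had been cultured for 6 days with L929 supernatant, a source of macrophage growth factor, and polyA RNA was sequenced. In the IL-27 group (3 libraries) cells received IL-27 at 100 ng/ml for 6 h, in the IL-4 group (3 libraries) IL-4 at 20 ng/ml for 12 h, and the untreated group (3 libraries) received neither. Dose and time both differ between the cytokines, and whether IL-4 was also added to the IL-27 cells is not stated in the labels. The labels name no animal or culture for a library. The p-values below therefore describe the spread among these libraries alone, and that spread may be technical.

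SOCS proteins are the feedback inhibitors of cytokine receptors that signal through JAK kinases and STAT transcription factors. Each carries an SH2 domain that docks on phosphorylated tyrosines and a SOCS box that recruits a ubiquitin ligase, and Socs1 and Socs3 also carry a short region that blocks the kinase itself. Cish, Socs1, Socs2 and Socs3 are known as STAT-induced genes with low levels at rest, whereas Socs4 to Socs7 are better known as regulators of growth factor and insulin receptors. IL-4 is known to act mainly through STAT6, and IL-27 is known to activate STAT3.

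The libraries held 34577188 to 37951827 counts each. Untreated replicate 2 and IL-4 replicate 1 stood apart from the other libraries of their groups. Chi-square per gene was 79.95 to 101 for replicate pairs with 1 of these libraries and 4.99 to 7.97 for the rest. Their deviations from the group means correlated at r = 0.900 across 9553 genes, which are not independent replicates. Genes lowest in transcript GC content (the bottom 10%) deviated by a median of -0.43 in IL-4 replicate 1 and -0.41 in untreated replicate 2 (log2), and those highest (the top 10%) by 0.30 in IL-4 replicate 1 and 0.26 in untreated replicate 2. All 8 macrophage markers, among them Adgre1, Csf1r, Cd68 and Itgam, averaged over 1 CPM, the count scaled to the library total after normalisation by the TMM method. The summed level of the macrophage markers was 24381 to 26447 CPM in IL-27, 14966 to 18604 CPM in IL-4 and 23167 to 31877 CPM in untreated libraries. Of 6 fibroblast markers 5 averaged over 1 CPM, and their summed level was 1044 to 1306 CPM in IL-27, 508 to 713 CPM in IL-4 and 680 to 772 CPM in untreated libraries. Of 35 listed markers of neutrophils, T cells, B cells, mast cells and basophils, eosinophils and dendritic cells, 5 averaged over 1 CPM. Ly6g, Cd3g, Trbc2, Mcpt4, Tpsb2, Fcer1a, Ms4a2 and Epx were absent from the counts. Among the 5 were Siglecf and Ccr3 of the eosinophil list. The summed level of that list was 14.8 to 17.4 CPM in IL-27, 43.7 to 52.6 CPM in IL-4 and 43.4 to 45.8 CPM in untreated libraries. The part of these differences in the results below was not tested, and fewer cells of a type cannot be told apart from less RNA per cell in such bulk samples.

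Under IL-4 the members that rose against untreated cells were Cish, Socs1 and Socs2, and Socs7 fell by a small amount. Under IL-27 the members that rose were Socs1, Socs3 and Socs6, and Cish fell. By edgeR's quasi-likelihood test with a Benjamini-Hochberg adjusted p under 0.05 over all genes as the threshold, 4 of the 8 members passed between IL-4 and untreated cells, against 25% of all genes tested. The 3 rises stand beside 12.9% of all genes and the 1 fall beside 12%. Between IL-27 and untreated cells 4 of 8 passed, against 29.2% of all genes, with 3 rises beside 14% and 1 fall beside 15.1%. Between IL-27 and IL-4 cells 7 of 8 passed, 3 higher and 4 lower in IL-27, against 39.8% of all genes (18.8% higher and 21% lower). The median log2 fold change of the 8 members was 0.06 for IL-4 against untreated, 0.49 for IL-27 against untreated and 0.08 for IL-27 against IL-4, beside -0.0089, 0.0014 and 0.0073 over all genes. Both comparisons with untreated cells share the same 3 untreated libraries. Without untreated replicate 2 and IL-4 replicate 1, the members passing numbered 4 (3 rises) for IL-4, 6 (4 rises) for IL-27 and 8 (4 higher) for IL-27 against IL-4. In that setting the shares over all genes were 46.4%, 49.5% and 58.3%.

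**Figure D1:**
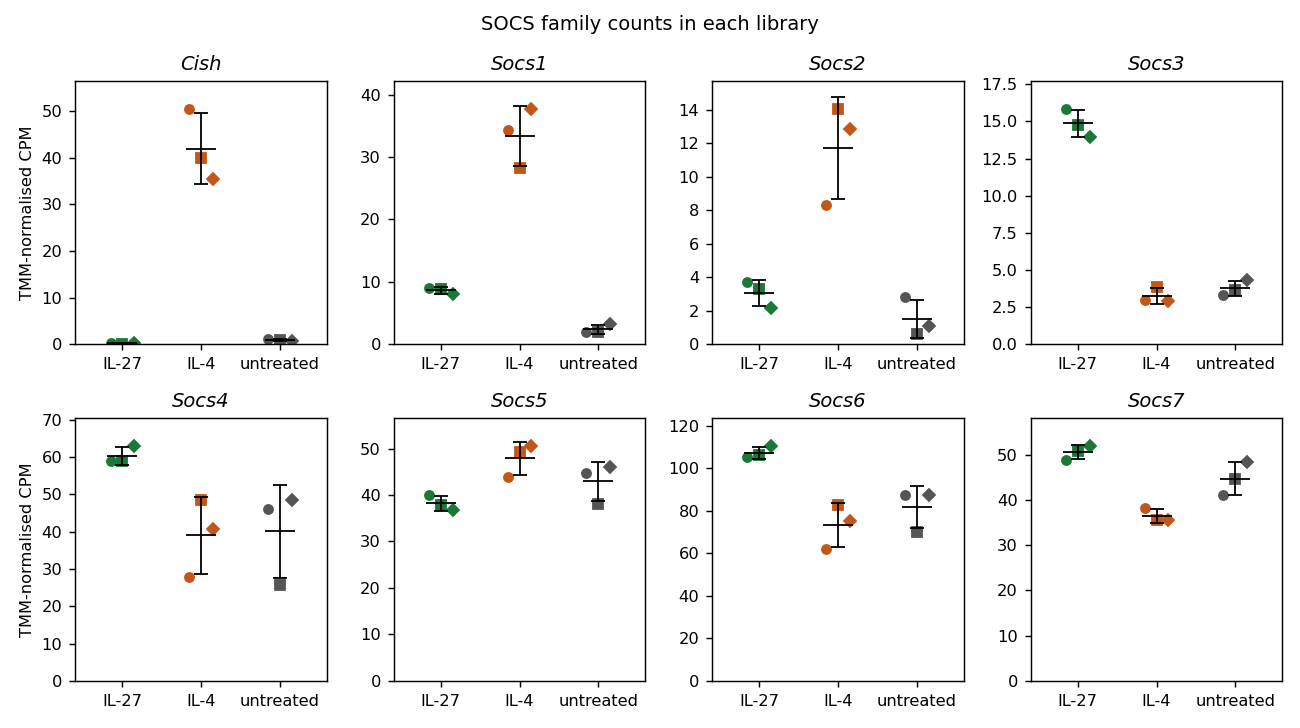
TMM-normalised CPM of each SOCS family gene (vertical axes, linear and starting at 0, with a scale of their own per gene) in the 3 IL-27, 3 IL-4 and 3 untreated libraries (circle, square and diamond for replicates 1, 2 and 3), with the mean and SD as bars. Cish, Socs1 and Socs2 are highest in the IL-4 libraries, Socs3 is highest in the IL-27 libraries, and Socs4 and Socs6 are lowest in IL-4 replicate 1 and untreated replicate 2 within their groups.

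Promoters of members were searched for known binding motifs where a sequence was available, which left out Socs2. STAT dimers are known to bind TTCNNNGAA, STAT6 is known to prefer TTCNNNNGAA, and interferon regulatory factors are known to bind repeats of the form GAAANNGAAA. Sequences from 250 bases before to 50 bases after the gene start were taken from RefSeq on GRCm38.p6, an older build than the one the counts were made on, and were available for 4 members, Cish, Socs1, Socs3 and Socs4. The Cish window is chr9:107296409-107296708 on the plus strand, the Socs1 window chr16:10785487-10785786 on the minus strand and the Socs3 window chr11:117969317-117969616 on the minus strand. They are shown 5′ to 3′ on the gene's strand because these genes gave the clearest responses, with matches to any of the 3 motifs in capitals.
Cish: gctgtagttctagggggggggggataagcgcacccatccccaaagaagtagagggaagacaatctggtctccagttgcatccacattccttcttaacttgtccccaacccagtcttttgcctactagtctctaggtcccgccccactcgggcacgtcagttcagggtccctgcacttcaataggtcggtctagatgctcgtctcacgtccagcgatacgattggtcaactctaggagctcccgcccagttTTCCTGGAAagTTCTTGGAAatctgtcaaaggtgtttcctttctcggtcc
Socs1: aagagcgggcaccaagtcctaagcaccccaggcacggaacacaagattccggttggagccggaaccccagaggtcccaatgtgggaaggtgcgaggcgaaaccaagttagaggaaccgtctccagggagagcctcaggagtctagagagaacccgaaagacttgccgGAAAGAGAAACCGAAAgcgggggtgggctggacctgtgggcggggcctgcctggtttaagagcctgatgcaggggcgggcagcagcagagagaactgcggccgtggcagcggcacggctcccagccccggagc
Socs3: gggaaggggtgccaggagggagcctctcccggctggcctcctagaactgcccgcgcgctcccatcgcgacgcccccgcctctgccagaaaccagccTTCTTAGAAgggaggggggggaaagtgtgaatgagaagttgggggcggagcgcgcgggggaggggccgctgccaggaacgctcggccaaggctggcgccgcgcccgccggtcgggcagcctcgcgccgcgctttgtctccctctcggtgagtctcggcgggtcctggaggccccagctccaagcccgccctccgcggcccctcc
In Cish, TTCNNNGAA occurred as TTCCTGGAA at positions 1 to 9 and as TTCTTGGAA at positions 12 to 20, counted from the first transcribed base. In Socs3 it occurred once, as TTCTTAGAA, at -154 to -146. In Socs1 the repeat GAAANNGAAA occurred at -83 to -74 and at -77 to -68, the matches overlapping each other. Among 32851 promoter windows of the same length, 8.30% held at least 1 TTCNNNGAA and 0.457% held 2 or more, 6.95% held TTCNNNNGAA, and 3.44% held GAAANNGAAA on either strand, with 0.225% holding 2 or more. None of the 4 member windows held TTCNNNNGAA, and the Socs4 window held none of the 3 motifs. A match describes these letters only.

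Cish, whose protein binds activated receptors and competes with STAT5 for them, gave the widest range of the family. It stood at 0.218, 0.138 and 0.246 CPM in the IL-27 libraries (8, 5 and 9 counts), at 50.3, 39.9 and 35.4 CPM in the IL-4 libraries (1716, 1597 and 1392 counts), and at 1.08, 0.813 and 0.670 CPM in the untreated libraries (39, 27 and 24 counts). No library of one group overlapped another group, and the IL-27 libraries lay below the untreated ones. Cish rose 48.7-fold under IL-4, a log2 fold change of 5.61 ± 0.22 (SE, n = 3 libraries per group, edgeR adjusted p = 2.97e-07), the 18th highest of the 12587 genes tested. Under IL-27 it fell 4.21-fold against untreated cells, a log2 change of -2.07 ± 0.32 (edgeR adjusted p = 0.000929). Between IL-27 and IL-4 cells the difference was -7.68 ± 0.27 (edgeR adjusted p = 5.58e-08), the 12th lowest of all genes tested. Its promoter is the one above with a pair of TTCNNNGAA matches, whose part in these changes was not tested.

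The size of both Cish changes against untreated cells depends on how the low untreated level is read. Several genes that IL-4 induces strongly, Arg1, Chil3, Retnla, Cdh1, Il31ra and Rnase2a, stood at 0% to 0.627% of their IL-4 level in IL-27 libraries and at 0.843% to 1.10% in untreated libraries. Cish stood at 0.463% of its IL-4 level in IL-27 and at 2.01% in untreated libraries. The lowest of the untreated shares, 0.843% of the IL-4 level, was then subtracted from the untreated counts. The rise of Cish under IL-4 became 81.8-fold and its fall under IL-27 2.51-fold (edgeR adjusted p = 0.0314 for the fall). In single untreated libraries the IL-4-induced genes above stood at 0.379% to 1.63% of their IL-4 level, and Cish at 2.65%, 1.75% and 1.62%. Whether the fall would pass after subtraction of a higher share was not tested. The source of these low levels was not tested.

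Socs1, which inhibits JAK kinases directly and is known as the main brake on interferon-gamma and IL-4 signalling, was the one STAT-inducible member that rose under both cytokines. Its level was 9.08, 8.77 and 8.07 CPM in IL-27, 34.3, 28.2 and 37.7 CPM in IL-4, and 1.95, 1.90 and 3.24 CPM in untreated libraries. The 3 groups did not overlap, with IL-4 highest and IL-27 between. Socs1 rose 14.1-fold under IL-4 (log2 3.82 ± 0.22, edgeR adjusted p = 2.20e-06) and 3.65-fold under IL-27 (log2 1.87 ± 0.21, edgeR adjusted p = 0.000125). It was 3.86-fold lower in IL-27 than in IL-4 cells (log2 -1.95 ± 0.19, edgeR adjusted p = 3.06e-05). Untreated Socs1 stood at 6.92% of its IL-4 level, well above the shares of the 6 strongly induced genes, and the same subtraction left its rises at 3.99 and 2.04 (log2). The overlapping GAAANNGAAA repeats lie in its promoter, and their part in these changes was not tested.

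Socs2, best known as the brake on growth hormone signalling, is expressed at low level in these cells. It was measured at 3.71, 3.31 and 2.16 CPM in IL-27, 8.30, 14.0 and 12.8 CPM in IL-4, and 2.81, 0.632 and 1.06 CPM in untreated libraries. The IL-4 libraries lay above all others, while untreated replicate 1 lay inside the range of the IL-27 libraries. Socs2 rose 7.76-fold under IL-4 (log2 2.96 ± 0.46, edgeR adjusted p = 0.00121) and was 3.83-fold lower in IL-27 than in IL-4 cells (edgeR adjusted p = 0.00544). Against untreated cells IL-27 gave a log2 fold change of 1.02 ± 0.46, which did not pass (edgeR adjusted p = 0.126). Leaving out untreated replicate 1 moved the change under IL-4 to 13.7-fold and that under IL-27 to a log2 fold change of 1.84 that passed (edgeR adjusted p = 0.00757). The other 8 of the 9 single-library omissions gave no call under IL-27. Without untreated replicate 2 the change under IL-4 was 6.06-fold. In the same fit the log2 fold change under IL-27 was 0.65 (edgeR adjusted p = 0.278). A long noncoding RNA gene overlaps Socs2 in the RefSeq annotation, and as the sources do not state how strand was handled in counting, reads from it cannot be told apart.

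Socs3, which binds gp130 and the JAK beside it and is known as the STAT3-induced brake on IL-6 family receptors, was highest in IL-27 cells. It stood at 15.8, 14.8 and 13.98 CPM in IL-27, 2.96, 3.87 and 2.88 CPM in IL-4, and 3.34, 3.67 and 4.32 CPM in untreated libraries. The IL-27 libraries lay far above the others, and the IL-4 and untreated libraries overlapped. Socs3 rose 3.93-fold under IL-27 (log2 1.97 ± 0.17, edgeR adjusted p = 1.87e-05) and was 4.58-fold higher in IL-27 than in IL-4 cells (log2 2.20 ± 0.17, edgeR adjusted p = 4.49e-06). Under IL-4 its log2 fold change was -0.22 ± 0.17 (edgeR adjusted p = 0.378).

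**Figure D2:**
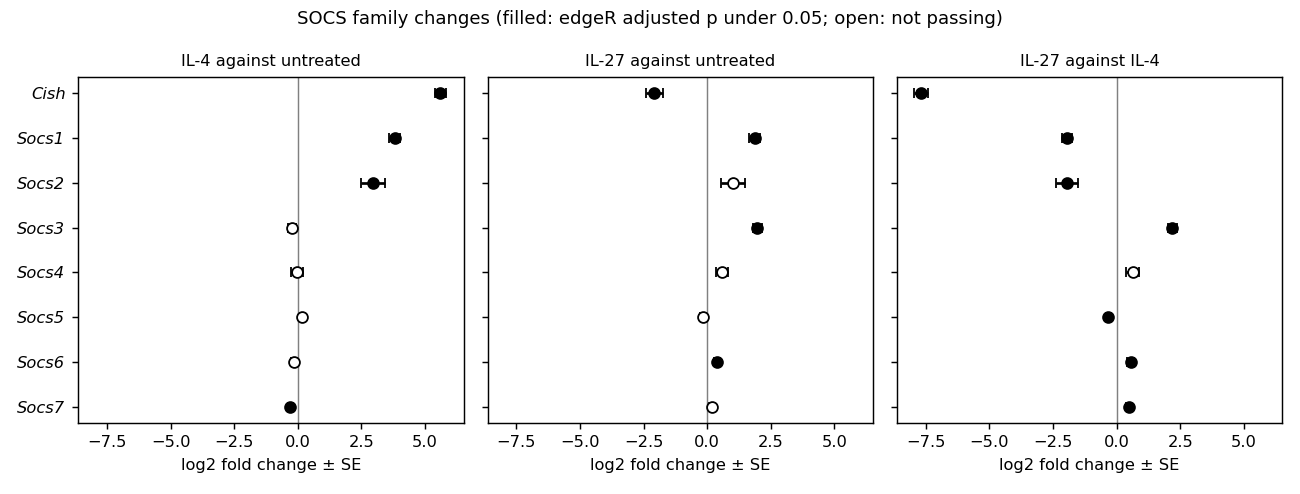
Log2 fold changes with standard errors for the 8 genes in each comparison (filled points passed an edgeR adjusted p under 0.05, open points did not). Cish lies furthest from 0 in each panel, with 5.61 for IL-4 against untreated and -2.07 for IL-27 against untreated, and Socs3 is filled only where IL-27 is one of the groups.

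The Socs4 to Socs7 genes had smaller fold changes than the STAT-inducible members had in the comparisons those passed. Socs6, which binds insulin receptor substrates and KIT-type receptors, stood at 105, 106 and 111 CPM in IL-27, 62.3, 82.8 and 75.2 CPM in IL-4, and 87.4, 70.2 and 87.2 CPM in untreated libraries. All IL-27 libraries lay above all others, and the IL-4 and untreated libraries overlapped. Socs6 was higher in IL-27 than in IL-4 cells by 0.55 ± 0.12 (log2, edgeR adjusted p = 0.00579) and higher than in untreated cells by 0.40 ± 0.12 (edgeR adjusted p = 0.0369). Only the omission of IL-4 replicate 1 or IL-4 replicate 2 kept the second call among the 9 single-library omissions, the other 7 giving edgeR adjusted p-values of 0.0534 to 0.117. With library totals as the only scaling it did not pass either (edgeR adjusted p = 0.125). Under IL-4 the log2 fold change was -0.15 ± 0.12 (edgeR adjusted p = 0.412).

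Socs7, an adaptor that binds signalling proteins such as NCK, stood at 48.9, 50.9 and 51.9 CPM in IL-27, 38.1, 35.6 and 35.5 CPM in IL-4, and 41.2, 44.6 and 48.4 CPM in untreated libraries. The 3 groups did not overlap, with IL-4 lowest. It was higher in IL-27 than in IL-4 cells by 0.47 ± 0.09 (log2, edgeR adjusted p = 0.00231) and fell by 0.30 ± 0.09 under IL-4 (edgeR adjusted p = 0.0384). Of the 9 single-library omissions, those of IL-4 replicate 1 and untreated replicate 1 kept the call of the fall and the other 7 gave edgeR adjusted p-values of 0.0577 to 0.140. It did not hold with all genes left in the fit, with library totals as the only scaling and when just the IL-4 and untreated groups were fitted (edgeR adjusted p = 0.0663, 0.0720 and 0.113). Under IL-27 the change against untreated cells was 0.18 ± 0.09 (log2, edgeR adjusted p = 0.175).

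Socs5, known for binding the EGF receptor and the IL-4 receptor chain, stood at 40.0, 37.9 and 36.8 CPM in IL-27, 43.9, 49.2 and 50.6 CPM in IL-4, and 44.8, 38.2 and 46.0 CPM in untreated libraries. IL-27 and IL-4 libraries did not overlap, and each overlapped the untreated ones. It was lower in IL-27 than in IL-4 cells by a log2 fold change of -0.32 ± 0.10 (edgeR adjusted p = 0.0302). That call was lost on leaving out any IL-27 library, IL-4 replicate 2 or IL-4 replicate 3, with edgeR adjusted p-values of 0.0580 to 0.0970. Against untreated cells the values were 0.16 ± 0.10 under IL-4 and -0.17 ± 0.10 under IL-27 (log2, edgeR adjusted p = 0.311 and 0.251). The value under IL-27 became -0.25 with a call when untreated replicate 2 and IL-4 replicate 1 were left out (edgeR adjusted p = 0.00324). In that setting, chosen from the deviations in these same data, 49.5% of all genes passed. A long noncoding RNA gene overlaps Socs5 in the RefSeq annotation as well.

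Socs4, a regulator of EGF receptor degradation, stood at 58.9, 58.8 and 62.9 CPM in IL-27, 28.0, 48.4 and 40.6 CPM in IL-4, and 46.0, 25.7 and 48.5 CPM in untreated libraries. All IL-27 libraries lay above all others, yet no comparison passed, with log2 fold changes of 0.63 ± 0.24 for IL-27 against IL-4, 0.59 ± 0.24 for IL-27 against untreated and -0.038 ± 0.24 for IL-4 against untreated (edgeR adjusted p = 0.0651, 0.0975 and 0.930). Its lowest value in each of the IL-4 and untreated groups came from the library that stood apart there. Without untreated replicate 2 and IL-4 replicate 1, Socs4 was higher in IL-27 cells by 0.43 than in IL-4 and by 0.35 than in untreated cells (log2, edgeR adjusted p = 2.02e-05 and 0.000345). Those libraries were picked for their deviation in these same data, and leaving them out narrows the spread of Socs4 by construction. In that setting 58.3% and 49.5% of all genes passed in these comparisons. DESeq2 and the fit of only the IL-27 and IL-4 groups also called the difference between IL-27 and IL-4 (adjusted p = 0.0347 and 0.0218), as did the fits without IL-4 replicate 2 or without untreated replicate 2 (edgeR adjusted p = 0.0386 and 0.0125). Leaving out IL-4 replicate 1 brought a call for IL-27 against untreated (edgeR adjusted p = 0.0398).

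**Figure D3:**
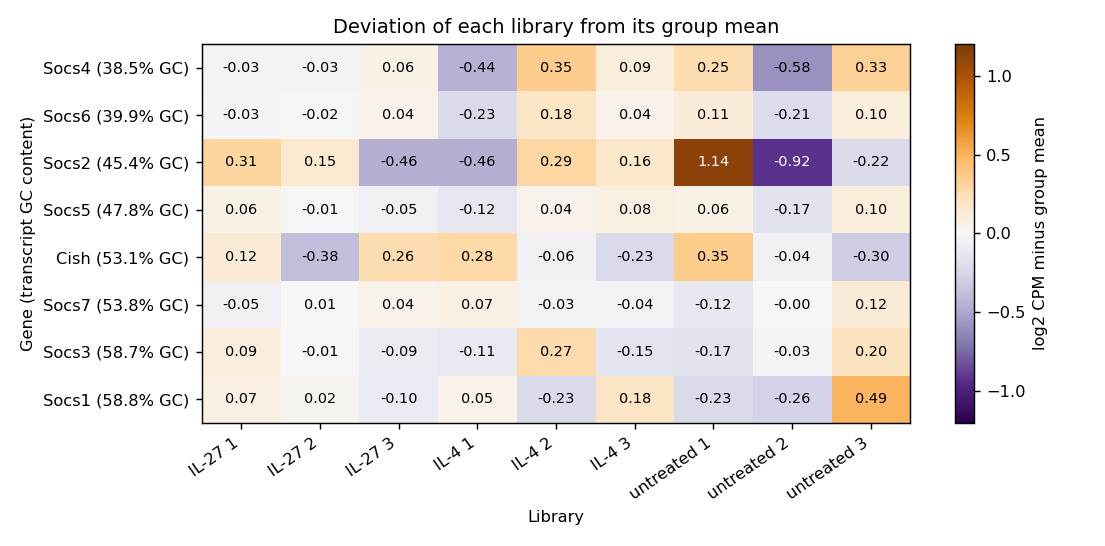
Deviation of each library from its group mean (log2 CPM) for the 8 genes, ordered from the lowest transcript GC content (Socs4, 38.5%) to the highest (Socs1, 58.8%). Socs4 and Socs6, the lowest in GC content, deviate by -0.44 and -0.23 in IL-4 replicate 1 and by -0.58 and -0.21 in untreated replicate 2, and Socs2 has the widest spread, from 1.14 in untreated replicate 1 to -0.92 in untreated replicate 2.

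The deposited FPKM values, which scale counts by gene length and library total, allow levels to be set side by side between genes. The order, sums and shares below depend on the lengths used, which run from 1340 bases for Socs1 to 12005 bases for Socs2. Before scaling by length, Socs2 lay above Socs3 in IL-4 libraries (means of 11.7 and 3.24 CPM). In IL-27 cells the order was Socs6 (17.6 ± 0.520 FPKM), Socs4 (8.59 ± 0.371), Socs7 (6.77 ± 0.199), Socs1 (6.33 ± 0.379), Socs3 (5.34 ± 0.344), Socs5 (3.78 ± 0.171), Socs2 (0.250 ± 0.0657) and Cish (0.0567 ± 0.0162 FPKM), and of the neighbours only Socs7 and Socs1 overlapped. In IL-4 cells Socs1 came first (25.5 ± 3.97 FPKM), then Socs6 (12.6 ± 2.42) and Cish (12.2 ± 1.49), whose libraries overlapped, then Socs4, Socs7 and Socs5 (5.86 ± 1.81, 5.08 ± 0.101 and 4.96 ± 0.647), overlapping along the order, and Socs3 and Socs2 (1.22 ± 0.245 and 1.01 ± 0.307), which also overlapped. In untreated cells Socs6 led (13.6 ± 2.50 FPKM), followed by Socs7, Socs4 and Socs5 (6.08 ± 0.641, 5.87 ± 2.12 and 4.33 ± 0.697), with Socs7 and Socs5 each overlapping Socs4. Socs1 and Socs3 overlapped at 1.77 ± 0.634 and 1.38 ± 0.219 FPKM, and so did Cish and Socs2 at 0.245 ± 0.0685 and 0.128 ± 0.103 FPKM. Each value is a mean and SD over n = 3 libraries.

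The family total and its make-up differed between the groups. Summed over the 8 genes, the level was 48.7 ± 0.701 FPKM in IL-27, 68.5 ± 5.22 FPKM in IL-4 and 33.4 ± 6.46 FPKM in untreated libraries, and the groups did not overlap. Cish and Socs1 to Socs3 together made up 24.6% ± 1.57 of it in IL-27, 58.5% ± 5.05 in IL-4 and 10.5% ± 1.13 in untreated libraries (SD, n = 3 each). Socs1 alone held 13.0% in IL-27, 37.2% in IL-4 and 5.23% in untreated libraries, and Cish 0.116%, 18.1% and 0.747% in the same groups. Socs3 held 10.97% in IL-27, 1.78% in IL-4 and 4.18% in untreated libraries. The ratio of Socs1 to Socs3 was 1.17, 1.21 and 1.18 in IL-27 libraries, 23.6, 14.9 and 26.7 in IL-4 libraries and 1.19, 1.05 and 1.53 in untreated libraries. The ratios of the IL-27 libraries lay inside the range of the untreated ones, and those of the IL-4 libraries lay far above both.

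**Figure D4:**
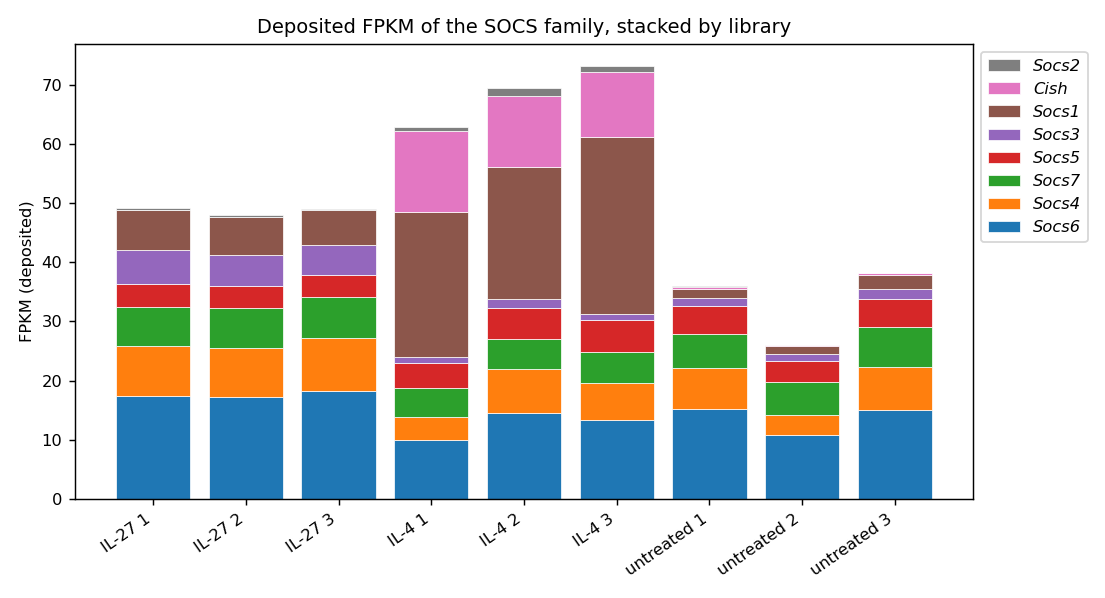
Deposited FPKM of the 8 genes stacked in each of the 9 libraries (bars start at 0). The IL-4 bars reach 62.9 to 73.2 FPKM with Socs1 and Cish as the widest layers beside Socs6, the IL-27 bars 47.9 to 49.2 FPKM, and the untreated bars 26.1 to 38.2 FPKM.

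The genes with the most similar pattern were named by the highest Pearson correlation of log2 CPM over the 9 libraries, a description in which the libraries share their groups and the deviation of untreated replicate 2 and IL-4 replicate 1. For Cish they were Olfm1, a secreted glycoprotein gene, Mcm6, a replication helicase gene, and Pcyox1l (r = 0.999 for each). Mcm6 had 45.2 CPM in IL-27, 162 CPM in IL-4 and 59.1 CPM in untreated cells. For Socs1 they were Ppa1, Septin11 and Clic4 (r = 0.995, 0.988 and 0.987), of which Clic4, a chloride channel family gene, had 531, 958 and 327 CPM in IL-27, IL-4 and untreated cells. For Socs3 they were Bcl2a1d, Lcp2 and Irgm1 (r = 0.997, 0.996 and 0.992). Irgm1, an interferon-induced GTPase gene, had 297 CPM in IL-27, 27.1 CPM in IL-4 and 41.8 CPM in untreated cells, and Bcl2a1d belongs to a family of close copies whose reads may be shared. Socs2 was nearest to Mrps5, Cct6a and Exoc1, Socs4 to Desi2, Gsk3b and Msantd4, and Socs5 to Ywhab, Smc4 and Nemp1. Socs6 was nearest to Rala, Cab39 and Rasa2, and Socs7 to Epb41l3, Gfod1 and Phlpp1 (r from 0.970 to 0.996 for these 5 members).

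The ubiquitin ligase that the SOCS box recruits is made of elongins, a cullin and a ring protein, and other enzymes attach Nedd8 to the cullin. Of 11 tested partners 0 rose and 1 fell under IL-4, 1 rose and 0 fell under IL-27, and 1 was higher and 3 lower in IL-27 than in IL-4 cells. The share that passed was 9.09% in each comparison with untreated cells, beside 25% (IL-4) and 29.2% (IL-27) of all genes, and 36.4% for IL-27 against IL-4, beside 39.8%. Arih2, a ligase that works with the neddylated cullin, averaged 68.2 ± 1.95 CPM in IL-27, 49.7 ± 3.05 CPM in IL-4 and 66.0 ± 2.49 CPM in untreated cells, so that it fell by 0.41 under IL-4 (log2, edgeR adjusted p = 0.00574). The median log2 fold change of the partners was 0.15 under IL-4 and 0.05 under IL-27, beside -0.0089 and 0.0014 over all genes. Cul2 rose by 0.44 under IL-27 (edgeR adjusted p = 0.0352). Elob, Rnf7 and Ube2m were lower in IL-27 than in IL-4 cells by log2 differences of -0.48, -0.30 and -0.33 (edgeR adjusted p = 0.0161, 0.0442 and 0.0250). The cullin that SOCS proteins mainly use, Cul5, did not pass in any comparison, with 36.7 ± 2.04 CPM in IL-27, 28.6 ± 7.70 CPM in IL-4 and 26.1 ± 7.58 CPM in untreated cells.

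Among other proteins with a SOCS box, 17 of 27 listed genes were tested. Under IL-4 1 rose and 2 fell, under IL-27 2 rose and 2 fell, and 4 were higher and 1 lower in IL-27 than in IL-4 cells. These are 17.6%, 23.5% and 29.4% of the list, below the 25%, 29.2% and 39.8% of all genes. Spsb1, an adaptor known to target inducible nitric oxide synthase, rose under both cytokines, with 4.28 ± 0.332 CPM in IL-27, 2.52 ± 0.364 CPM in IL-4 and 1.61 ± 0.182 CPM in untreated cells (edgeR adjusted p = 0.000507 for IL-27 and 0.0393 for IL-4). Its relative Spsb4 went opposite ways, with 31.6 ± 2.48 CPM in IL-27, 11.7 ± 0.588 CPM in IL-4 and 19.2 ± 1.09 CPM in untreated cells (edgeR adjusted p = 0.000587 for IL-27 and 0.000880 for IL-4). The list had medians of -0.13 under IL-4 and -0.0022 under IL-27 (log2). Asb13 fell under IL-4 by 0.45 (log2, edgeR adjusted p = 0.0114). Asb4 and Asb10 fell under IL-27 by 1.41 and 1.65 (log2, edgeR adjusted p = 0.00351 and 0.0435) at levels under 3 CPM in every group.

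Brakes on JAK-STAT signalling outside the SOCS family were also counted. Of 16 tested, 3 rose and 2 fell under IL-4, 2 rose and 3 fell under IL-27, and 1 was higher and 4 lower in IL-27 than in IL-4 cells. The share that passed, 31.25% in each comparison, stands beside the 25%, 29.2% and 39.8% of all genes. Cblb, a ubiquitin ligase that restrains receptor signalling, rose under both, with 106 ± 4.17 CPM in IL-27, 219 ± 13.5 CPM in IL-4 and 70.4 ± 3.35 CPM in untreated cells (edgeR adjusted p = 0.000565 for IL-27 and 1.16e-06 for IL-4). Over the list the median was 0.0028 under IL-4 and -0.13 under IL-27 (log2). The phosphatase gene Dusp2 also rose under both, by 0.67 under IL-27 and 0.57 under IL-4 (log2, edgeR adjusted p = 0.00380 and 0.0106). Ptpn6, which encodes the phosphatase SHP-1, fell under both, with 151 ± 8.79 CPM in IL-27, 179 ± 26.9 CPM in IL-4 and 239 ± 39.1 CPM in untreated cells (edgeR adjusted p = 0.00513 for IL-27 and 0.0489 for IL-4). Pias3, an inhibitor of STAT3, fell by 0.65 under IL-27 (log2, edgeR adjusted p = 0.000868), while Ubash3b rose by 0.44 and Ptprc fell by 0.45 under IL-4 (log2, edgeR adjusted p = 0.0117 and 0.0269).

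Upstream of the family, 4 of 29 receptor chains, JAKs and STATs rose and 7 fell under IL-4, 8 rose and 5 fell under IL-27, and 10 were higher and 6 lower in IL-27 than in IL-4 cells. In all, 37.9%, 44.8% and 55.2% of the list passed in these comparisons, beside 25%, 29.2% and 39.8% of all genes. Il6st, the gp130 chain to which Socs3 binds, averaged 157 ± 1.84 CPM in IL-27, 447 ± 29.9 CPM in IL-4 and 159.6 ± 8.37 CPM in untreated cells (edgeR adjusted p = 1.92e-06 for IL-4 against untreated and 5.50e-07 for IL-27 against IL-4). Stat3 was 215 ± 2.18 CPM in IL-27, 117 ± 18.02 CPM in IL-4 and 164 ± 24.5 CPM in untreated cells, a fall under IL-4 and a rise under IL-27 (edgeR adjusted p = 0.0221 and 0.0495). Il4ra, whose product SOCS1 restrains, averaged 107 ± 6.02 CPM in IL-27, 55.1 ± 7.44 CPM in IL-4 and 72.0 ± 8.76 CPM in untreated cells. Jak2, a target of SOCS1 and SOCS3, rose by 1.36 under IL-4 (log2, edgeR adjusted p = 0.000436), and Il10ra and Csf3r fell by 1.08 and 0.91. Under IL-27 Ifngr1, Il6ra and Csf3r fell by 1.19, 1.31 and 1.17 (log2). The medians of this list were -0.08 under IL-4 and -0.020 under IL-27. Stat6, at 240 ± 5.99 CPM in IL-27, 212 ± 16.5 CPM in IL-4 and 230 ± 22.9 CPM in untreated cells, and Stat5a did not pass in any comparison.

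**Figure D5:**
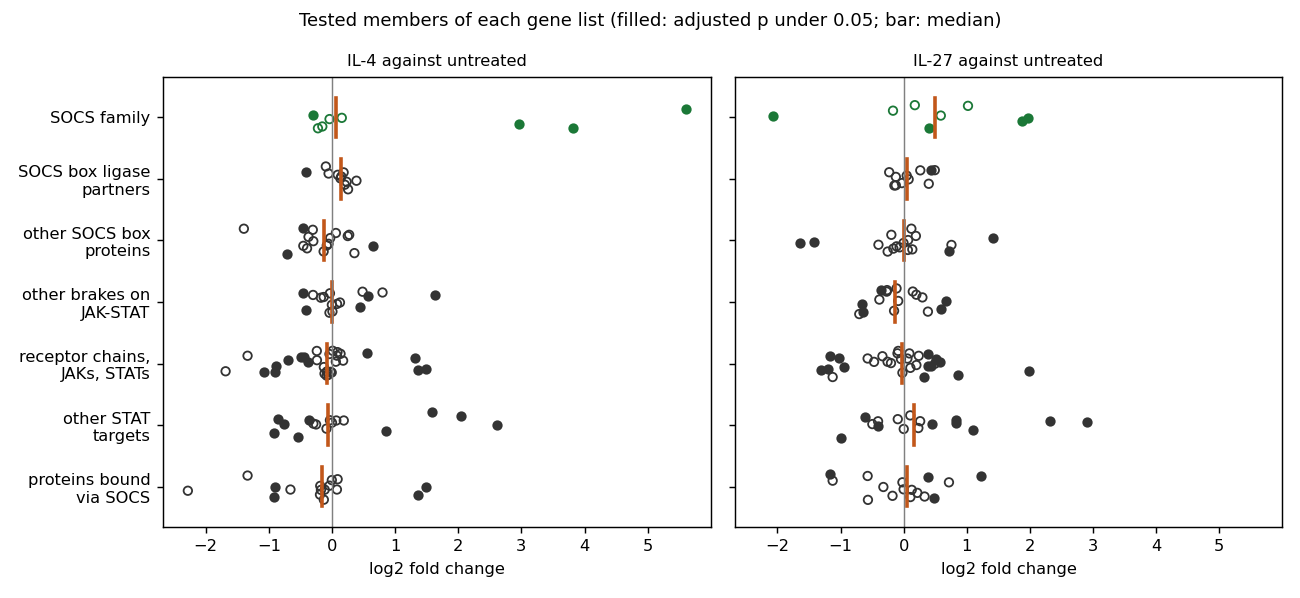
Log2 fold changes of the tested genes of the SOCS family and of 6 related lists, for IL-4 against untreated and IL-27 against untreated cells (filled points passed an edgeR adjusted p under 0.05, the bar is the list's median, and the vertical position within a list has no meaning). The largest rises under IL-4 are those of Cish, Socs1 and Socs2 in the first list, while the ubiquitin ligase partners have medians of 0.15 under IL-4 and 0.05 under IL-27.

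Other textbook STAT target genes moved in both directions. Of 16 tested, 4 rose and 5 fell under IL-4, 6 rose and 3 fell under IL-27, and 6 were higher and 6 lower in IL-27 than in IL-4 cells. That makes 56.25%, 56.25% and 75.0% of the list, beside the same shares of all genes as above (25%, 29.2% and 39.8%). Irf1, an interferon regulatory factor gene, averaged 305 ± 18.1 CPM in IL-27, 61.0 ± 6.50 CPM in IL-4 and 60.9 ± 12.1 CPM in untreated cells (edgeR adjusted p = 3.92e-06 for IL-27 against untreated). Il1rn, the IL-1 receptor antagonist gene, averaged 39.9 ± 4.57 CPM in IL-27, 4.49 ± 0.807 CPM in IL-4 and 5.34 ± 1.89 CPM in untreated cells (edgeR adjusted p = 2.71e-05). Like Socs3, these genes were high in the IL-27 libraries. Nfil3 was 18.7 ± 1.55, 64.0 ± 4.86 and 10.5 ± 0.508 CPM in IL-27, IL-4 and untreated cells, rising under both as Socs1 did (edgeR adjusted p = 0.000267 for IL-27 and 3.23e-07 for IL-4). Ccnd1 also rose under both, by 1.10 under IL-27 and 1.58 under IL-4 (log2), Myc and Pim3 rose under IL-4 by 2.05 and 0.86, and Fos fell under IL-27 by 0.99. The list had medians of -0.060 under IL-4 and 0.17 under IL-27.

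Of the 16 tested genes whose proteins are bound or degraded through SOCS proteins, 2 rose and 2 fell under IL-4, 3 rose and 1 fell under IL-27, and 5 were higher and 2 lower in IL-27 than in IL-4 cells. The shares, 25.0%, 25.0% and 43.75%, lie near the 25%, 29.2% and 39.8% of all genes. The medians were -0.15 under IL-4 and 0.05 under IL-27 (log2), and Jak1, Jak2, Tyk2, Il6st, Epor and Csf3r also stand in the upstream list. Irs2, the insulin receptor substrate expressed in macrophages, averaged 60.8 ± 2.35 CPM in IL-27, 46.2 ± 6.08 CPM in IL-4 and 43.4 ± 6.49 CPM in untreated cells (edgeR adjusted p = 0.0179 for IL-27 against untreated). Ghr, the growth hormone receptor that SOCS2 restrains, averaged 3.86 ± 0.575 CPM in IL-27, 1.04 ± 0.176 CPM in IL-4 and 1.64 ± 0.487 CPM in untreated cells (edgeR adjusted p = 0.00729 for IL-27 against untreated and 0.000448 for IL-27 against IL-4). Jak1 rose by 0.38 under IL-27 (edgeR adjusted p = 0.00388), and Igf1r fell by 0.91 under IL-4 (edgeR adjusted p = 0.000595).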

How the data were processed

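PolyA RNA was sequenced in 9 libraries, 3 per group by the sample titles. The authors deposited whole-number counts per gene, and the submitters' processing notes list HISAT2, HTSeq, fastp and GRCm39, with no versions. The annotation and the handling of strand and of shared reads are not stated there. FPKM values were also deposited. Divided into the counts, they gave whole gene lengths (tolerance 0.001 bases) for 100% of 16200 genes, so that both tables rest on 1 set of counts.

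A quasi-likelihood model of the counts with group as its only term was fitted to the 9 libraries together (edgeR 4.0.16 in R 4.3.3, TMM factors, filterByExpr at a minimum count of 10). Adjustment by Benjamini-Hochberg covered all 12587 genes kept, and an adjusted p under 0.05 was a call. Standard errors were back-calculated from the F statistic and are approximate. The fit was also run on simulated counts that vary independently between libraries. These do not carry the deviation shared by untreated replicate 2 and IL-4 replicate 1, so they cannot show its effect on the fit. The common dispersion was 0.0272. Counting error limits precision mainly for Cish outside the IL-4 group, where its counts are lowest. The counts of Socs2 in untreated libraries (101, 21 and 38) spread more widely than counting error alone would give.

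Members, gene lists, tests and alternatives were chosen with earlier results of these data known. The genes named are the 8 members, in each comparison the called genes of a list (at most 4) that rank first by adjusted p, and for each member the 3 best correlated of 9391 candidates at 5 CPM or more. Cul5, Stat3, Stat5a and Stat6, and list genes in comparisons where they did not rank, were added after their values were seen. Some listed genes are counted but not reported by name here. GC content is that of the longest GENCODE M21 transcript, and promoter windows are RefSeq's. Alternatives were other scalings and filters, DESeq2 1.42.0, fewer groups, a replicate block, each library left out, 2 libraries left out together and subtraction of a share of the IL-4 level.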

Additional observations from a re-analysis of the deposited data

How the results depend on the processing

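The calls of Cish, Socs1 and Socs3 in the comparisons that passed, and that of Socs2 for IL-4 against untreated and for IL-27 against IL-4, held under all 19 alternatives. Of 456 values of members, 418 kept direction and side of the threshold, 26 lost a call, 9 gained one and 3 turned sign. Those 3 were Socs4 for IL-4 against untreated, never called, at 0.15 without IL-4 replicate 1, 0.07 without untreated replicate 1 and 0.12 without untreated replicate 3, with a range of -0.27 to 0.15 over single libraries left out (log2). Of 1139 values of the other named genes, 60 lost a call and the rest kept theirs, and of 342 list counts 35 moved by over 1.5 times. Leaving out untreated replicate 2 and IL-4 replicate 1 together gave 5909 genes called for IL-4 against untreated and 6313 for IL-27 against untreated, in place of 3145 and 3670, and the cause was not tested. Leaving out single libraries gave 2313 to 3666 genes for IL-4, 2580 to 4618 for IL-27 and 3859 to 5700 for IL-27 against IL-4. With library totals alone the share of rises among calls for IL-27 against IL-4 was 38.9%, beside 47.2% with TMM. Same-numbered libraries did not all deviate together (r = -0.775, -0.797 and 0.666 for replicates 1, 2 and 3 of IL-4 with untreated, and -0.0055 to 0.081 for pairs with IL-27). The values for IL-4 with untreated follow largely from the deviation that untreated replicate 2 and IL-4 replicate 1 share, so they cannot decide on pairing. As the labels name no animal or culture, the numbers were not taken to pair libraries. A fit with the replicate number as a block called 3 members for IL-4, 3 for IL-27 and 6 for IL-27 against IL-4, losing Socs7, Socs6 and Socs5 in that order (edgeR adjusted p = 0.0960, 0.0802 and 0.0692), and 2308, 2899 and 4216 genes in all. Depth limits Cish in IL-27 cells, which rests on 22 counts over 3 libraries.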
